A study of Mus musculus with 20 samples.

Results

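The transforming growth factor beta (TGF-beta), bone morphogenetic protein (BMP) and activin pathway was followed through N6-methyladenosine (m6A) maps of mouse male germ cells. Members were all genes whose deposited symbol began with Bmp, Gdf, Tgfb or Smad and a digit, with Bmpr, Acvr or Tgfbr, with Ltbp and a digit, with Inhb, or with Smurf1 or Smurf2. By this rule 27 of 11851 genes with a listed peak were members, and they carried 211 of 84778 listed peaks. The rule uses names and no measured value. The RefSeq gene list holds 59 genes that match it, and the other 32 had no listed peak in the tables used here.

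The libraries came from C57BL/6 mice at 5 stages of spermatogenesis. These were undifferentiated spermatogonia and the type A1 spermatogonia that follow them, spermatocytes entering meiosis (preleptotene), spermatocytes of mid-meiosis (pachytene/diplotene) and, last, round spermatids. No genotype change or treatment is named in the labels, and how the cells were isolated is not described there. Poly(A) RNA was fragmented and enriched with an antibody to m6A, so that each stage gave 2 libraries of enriched RNA and 2 of input, for a total of 20. Whether the replicates are different animals is not stated, and the p-values below therefore rest on a spread that could be technical.

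m6A is a methyl group that the Mettl3 and Mettl14 complex places on adenosines inside messenger RNA, where reader proteins can change the stability or translation of the transcript. TGF-beta family ligands bind pairs of type II and type I receptor kinases. These phosphorylate receptor Smads, which enter the nucleus with the common Smad, while inhibitory Smads and Smurf ubiquitin ligases shut the signal off. In the testis, activins, BMPs and TGF-betas pass between Sertoli cells and germ cells and are known for effects on spermatogonial differentiation.

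Depth was 9622068 to 22402907 mapped reads per library. The 4 type A1 libraries stood apart, with 68.3% to 87.5% of reads mapped against 92.8% to 97.6% in the other 16, and of the 5 comparisons below 3 use no type A1 library. Values are the deposited log2 enrichment of the immunoprecipitate over input in each of 2 replicates, and positions count from the first base of the transcript. A listed peak needs enough RNA to be seen, and transcript levels were not analysed here. In bulk samples fewer cells of a type and less RNA per cell cannot be told apart, so a gene without a listed peak is not shown to be unmethylated.

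Pathway genes were most often listed in undifferentiated spermatogonia and least often from mid-meiosis on. In undifferentiated spermatogonia 26 of 27 members had a peak (96.3%, against 76.0% of all genes listed at any stage). Type A1 spermatogonia had 18 (66.7%, against 61.2%). Preleptotene spermatocytes had 15 (55.6%, against 62.5%). Only 8 were listed in pachytene/diplotene spermatocytes (29.6%, against 56.1%), and 8 in round spermatids (29.6%, against 46.8%). Neither late stage listed 16 members (59.3%, against 33.7% of all genes). The lists differed in length, with 23031, 16392, 18749, 15656 and 10950 peaks, and among the best 10950 peaks of each the members numbered 20, 16, 15, 8 and 8 of 22. In percent these were 90.9, 72.7, 68.2, 36.4 and 36.4, against 59.6, 57.8, 55.4, 53.8 and 54.6 of all genes, so the preleptotene share lay above that of all genes at equal length and below it over the full lists. The shares are descriptions of 5 peak lists and were not tested.

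**Figure D1:**
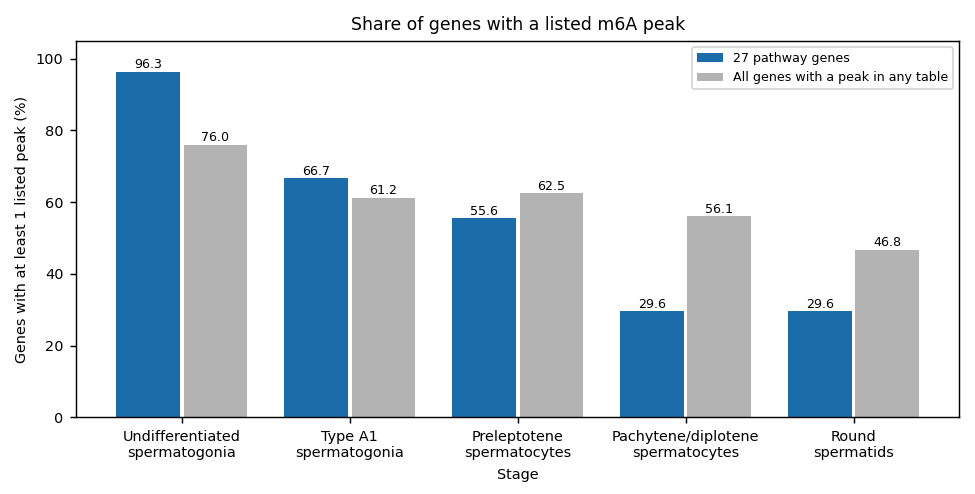
Bars give the percent of genes with at least 1 listed m6A peak at each stage, for the 27 pathway genes (blue) and for all 11851 genes with a peak at any stage (grey). The pathway share falls from 96.3% in undifferentiated spermatogonia to 29.6% in both late stages, while the share of all genes lies between 76.0% and 46.8%.

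The parts of the pathway differed in the stages that listed them. All 4 listed ligands had peaks in undifferentiated spermatogonia, and of them Tgfb1 alone was listed again, in preleptotene spermatocytes. Of 4 type I receptors, 4, 4, 3, 1 and 0 were listed from undifferentiated spermatogonia to round spermatids. Of 4 type II receptors, 4, 3, 2, 1 and 1 were listed, and of 4 receptor Smads, 4, 4, 3, 2 and 3. Both Smurf ligases were listed at all 5 stages.

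Several members had a listed peak at the first bases of the transcript, a trait not counted over all genes. Their first 30 transcribed bases are shown because a listed peak lay within the first 50 bases, and the 4-letter core GGAC of the usual m6A motif is in capitals. They are from RefSeq (build GRCm38.p6, the same coordinates as mm10), 5′ to 3′ on the transcript strand, at chr2:48814109-48814138 for Acvr2a, chr13:38345716-38345745 for Bmp6, chr1:59764279-59764308 for Bmpr2, chr9:63757965-63757994 for Smad3 and chr11:106920686-106920715 for Smurf2.
Acvr2a: agcttcaGGACggaaccggaagtgtagggg
Bmp6: gatcctggccgtcgccccgtcgtctcttct
Bmpr2: actctggatatgttttctcccagatctggg
Smad3: ggcggcacccaaacagctaccccgtgcgga
Smurf2: ggctgcggccccaGGACcgggttctctcag
GGAC, searched on the transcript strand alone, stood in the first 50 bases of Acvr2a and Smurf2 and in those of 18.9% of 27025 genes. Tgfbrap1, which also had a leading peak, is not shown because it has 2 RefSeq starts, of which 1 held GGAC in its first 50 bases. Bmp7 and Tgfbr3 had leading peaks too. Whether the authors' transcripts start at these same bases was not tested. The leading Bmpr2 peak began at base 39, past the bases shown. For Smurf2 the RefSeq gene extends upstream of the start shown, to base 106920747. Antibodies to m6A also bind a related methylated adenosine next to the cap, and the assay does not tell the marks apart.

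The strongest of these leading peaks was on Smurf2, which encodes a ligase that ubiquitinates Smads and TGF-beta receptors (chr11:106820061-106920747). Its peak over the first 149 bases reached 6.11 and 5.29 in preleptotene spermatocytes, above 98.2% of that table's peaks or equal to them. The overlapping peak had 5.42 and 5.18 in undifferentiated spermatogonia and 4.34 and 5.14 in pachytene/diplotene spermatocytes. Neither type A1 spermatogonia nor round spermatids listed it, although the values at those bases behind the deposited ratios were 3.03 and 3.63 in type A1 and 3.09 and 3.06 in round spermatids. An unlisted peak here was therefore no absence of enrichment. Acvr2a, Bmp6, Bmp7 and Smad3 each had a peak starting at base 1 in undifferentiated spermatogonia, with replicate values between 2.09 and 3.21, as did Tgfbrap1 (2.70 and 2.19). The Tgfbr3 peak there started at base 2 (3.0 and 2.57).

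Ligands and latent binding proteins had moderate peaks, almost all in undifferentiated spermatogonia. Tgfb1, the founding ligand, had a 5′ UTR peak of 3.87 and 4.52 there and of 3.48 and 4.0 in preleptotene spermatocytes. Inhbb, the beta B subunit of activin and inhibin, had 4 peaks in undifferentiated spermatogonia, the strongest at 3.71 and 3.87 in the 3′ UTR. Bmp6 (3.05 and 2.66) and Bmp7 (2.53 and 2.66), both BMP ligands, had their strongest peaks at the 5′ end. Among the latent binding proteins, which hold TGF-beta in the matrix, Ltbp3 reached 3.14 and 2.65 and Ltbp4 2.96 and 2.95, both in undifferentiated spermatogonia. Ltbp1 was listed in type A1 spermatogonia alone, with a 3′ UTR peak at 2.65 and 2.22.

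The members listed in undifferentiated spermatogonia alone were Bmp6, Bmp7, Inhbb, Ltbp3, Ltbp4 and Tgfbr2 (6 of 27, 22.2%, against 8.74% of all genes). Markers of somatic testis cells moved with them. Of 34 such markers 25 had a peak in undifferentiated spermatogonia, but only 2 had one in type A1, 6 in preleptotene and 0 in pachytene/diplotene cells, and 1 had one in round spermatids. In undifferentiated spermatogonia these were 9 of 10 Sertoli, 3 of 6 Leydig, 8 of 10 peritubular, stromal and endothelial and 5 of 8 blood markers. The highest listed value of each marker, taken per replicate, summed to 87.8 and 100.2 log2 units there in replicates 1 and 2. The sums were 3.96 and 3.82 for type A1, 21.6 and 22.0 for preleptotene, 0 and 0 for pachytene/diplotene and 1.72 and 2.32 for round spermatids. They grow with the number of listed markers and measure no amount of RNA. The part of somatic RNA in the listing of these members was not tested. Of 11 markers of undifferentiated spermatogonia 10, 7, 2, 1 and 0 were listed across the 5 stages in order. Of 5 markers of differentiating spermatogonia these were 3, 4, 4, 1 and 1. Of 10 late spermatocyte and spermatid markers they were 2, 0, 2, 6 and 6. The 8 meiosis markers were listed at 5, 5, 7, 6 and 5, so that list did not single out the meiotic stages.

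**Figure D2:**
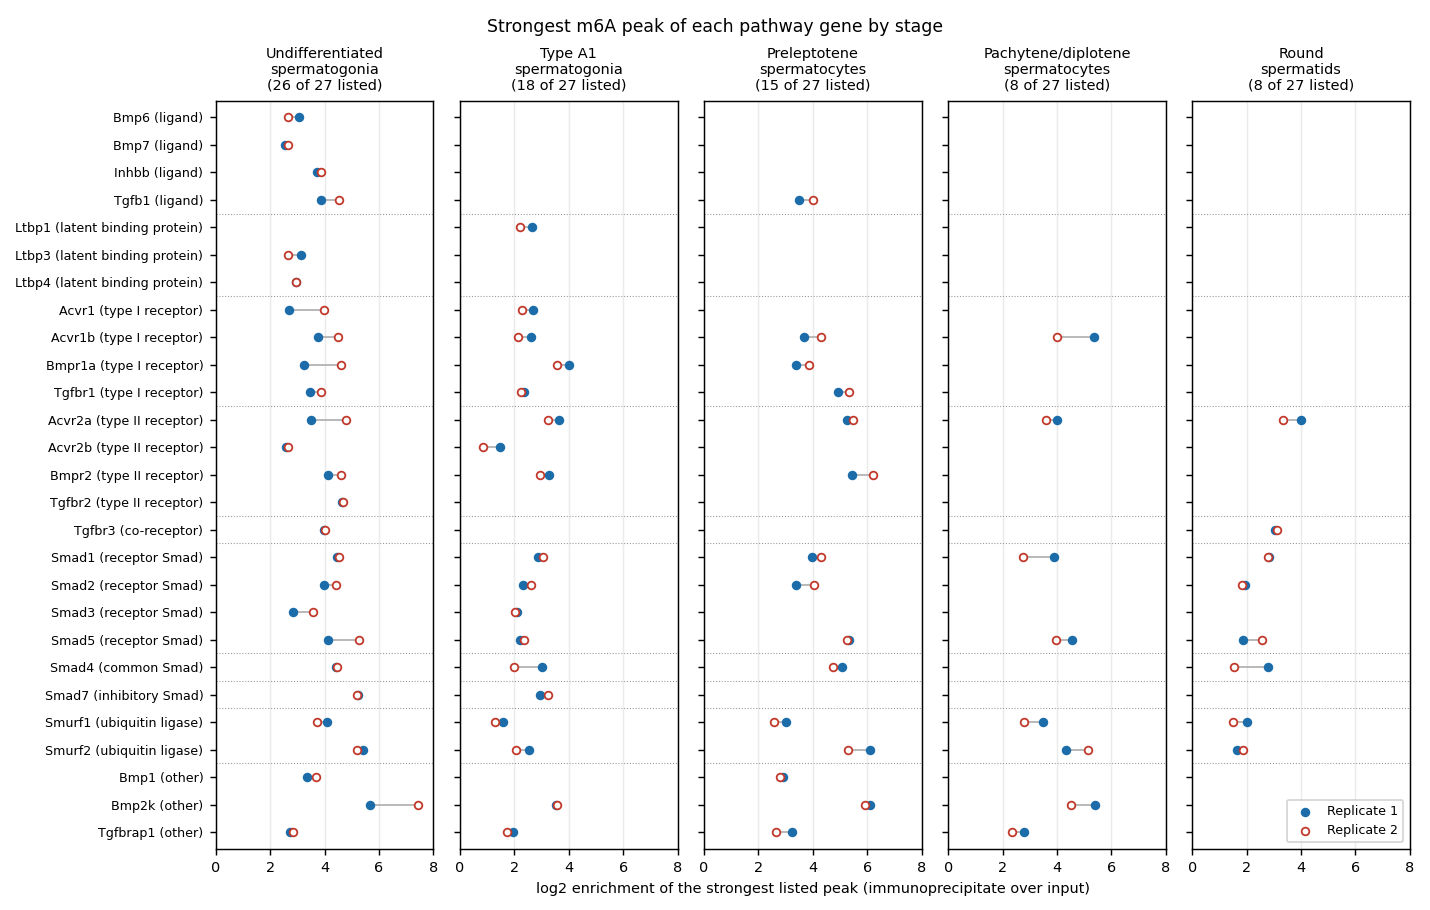
Each row is a pathway gene ordered by role, each panel a stage, and the points are the deposited log2 enrichments of the gene's strongest listed peak in replicate 1 (filled) and replicate 2 (open), with no point where none is listed. Ligands and latent binding proteins thin out after the first panel, and 5 genes have points in all panels. Levels were not tested across panels.

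Bmpr2, the type II receptor for BMPs (chr1:59764279-59878081), was among the most heavily marked members and stood highest in preleptotene spermatocytes. Both spermatogonial stages listed 4 Bmpr2 peaks, preleptotene spermatocytes listed 7, and none was listed later. The strongest had 4.13 and 4.61 at the undifferentiated stage and 3.26 and 2.96 at the type A1 stage. In preleptotene spermatocytes it had 5.44 and 6.23. The first and last of these lay at the end of the coding region (bases 3310 to 3477 and 3301 to 3480), and that of type A1 at bases 2464 to 2780. Those values lay at the percentiles 87.7, 94.7 and 98.6 of their tables. Most of its peaks fell in the last part of the coding region, between bases 2441 and 3493.

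Tgfbr1, the type I receptor for TGF-beta (chr4:47353222-47414926), had the same stages. Both spermatogonial stages listed 3 of its peaks and preleptotene spermatocytes 7. Its strongest, at or just past the stop codon, had 3.47 and 3.87, then 2.35 and 2.26, then 4.91 and 5.33 in that order of stages. The percentiles were 73.3, 76.8 and 96.1.

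Smad7, the inhibitory Smad that TGF-beta signalling itself induces (chr18:75367365-75395935), was listed in spermatogonia and not later. In undifferentiated spermatogonia it had 6 peaks, the strongest of them in the coding region at 5.24 and 5.20. Type A1 spermatogonia had 4, led by the start codon peak at 2.93 and 3.22. Both leading peaks lay high in their tables, at percentiles 95.6 and 94.4. At the coding peak of type A1 (bases 2489 to 2700, 2.47 and 2.42) preleptotene spermatocytes had 2.47 and 2.24 without a listed peak.

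**Figure D3:**
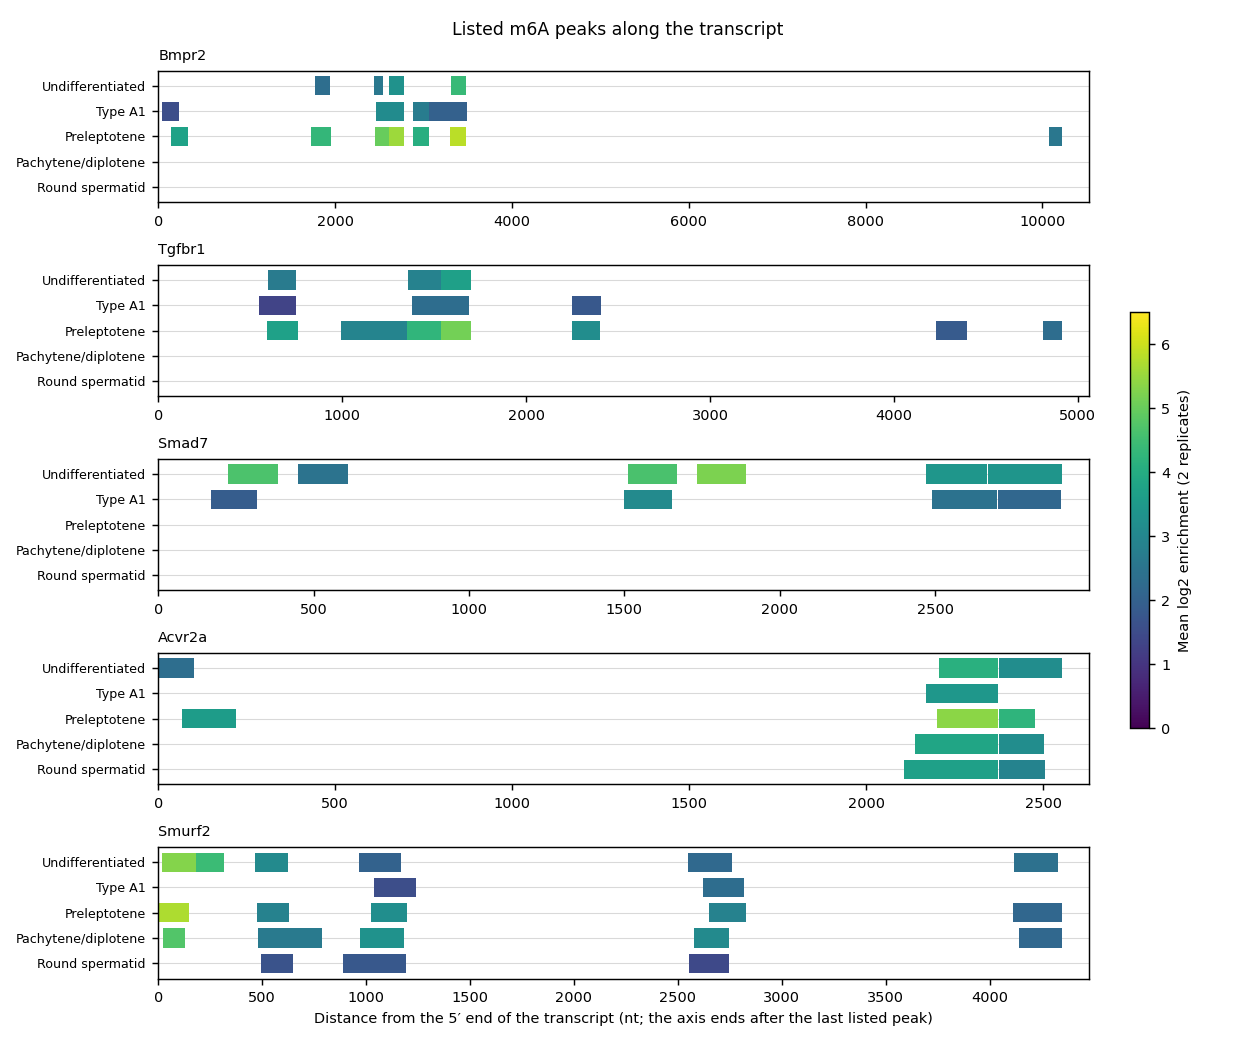
Boxes are listed m6A peaks along 5 transcripts, by stage, with distance from the 5′ end in nucleotides and colour for the mean log2 enrichment of 2 replicates. Bmpr2 and Tgfbr1 carry 7 peaks each in preleptotene spermatocytes and none later, Smad7 is listed in spermatogonia and not later, and Acvr2a and Smurf2 have boxes at overlapping places in all 5 stages.

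Among the other receptors, Acvr2a, the type II receptor that binds activins (chr2:48814109-48903264), kept a peak around the stop codon at all 5 stages. In the order of the stages that peak had 3.48 and 4.80, then 3.63 and 3.24, 5.26 and 5.48, 4.01 and 3.62, and 4.0 and 3.33. It was the strongest Acvr2a peak of every table, at percentiles 84.0, 97.5, 97.2, 81.1 and 98.5. Acvr1b, the type I activin receptor, was strongest in pachytene/diplotene spermatocytes, at 5.36 and 4.00 in the 3′ UTR. Bmpr1a, a type I BMP receptor, had a stop codon peak of 3.23 and 4.60 in undifferentiated spermatogonia and of 4.01 and 3.57 in type A1, where it exceeded 99.1% of the listed peaks or equalled them. Acvr1, another type I receptor, and Acvr2b, the second activin type II receptor, were listed in spermatogonia alone. Tgfbr2, the type II receptor for TGF-beta, had 5 peaks in undifferentiated spermatogonia, up to 4.62 and 4.68, and none at another stage.

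Tgfbr3, the co-receptor betaglycan (chr5:107106567-107289629), was listed in the first and the last stage. Its stop codon peak had 3.96 and 4.03 in undifferentiated spermatogonia and 3.04 and 3.12 in round spermatids. The 3 stages in between listed no Tgfbr3 peak.

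Of the Smads of the BMP branch, Smad1 and Smad5 were listed at all 5 stages, and Smad9 had no listed peak. Smad1, a receptor Smad of BMP signals, had its strongest peak near the start codon in 4 stages. Its values were 4.44 and 4.54 for undifferentiated cells, 2.85 and 3.04 for type A1, 3.96 and 4.31 for preleptotene and 2.82 and 2.80 for round spermatids. In pachytene/diplotene spermatocytes it was instead a 3′ UTR peak, at 3.89 and 2.75. Smad5 had 4.11 and 5.28, then 2.21 and 2.35, 5.32 and 5.27, 4.57 and 3.97, and 1.87 and 2.55 across the 5 stages in order. Its leading peak lay in the 5′ UTR in preleptotene spermatocytes and round spermatids and at the start of the coding region in the others, so these are levels of different sites.

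Of the activin and TGF-beta branch, Smad2 was listed in 4 stages and Smad3 in spermatogonia alone. Smad4, the common partner, had start codon peaks of 4.41 and 4.45 for undifferentiated cells, 3.01 and 1.99 for type A1 and 2.79 and 1.52 for round spermatids. The same place had 5.07 and 4.73 in preleptotene spermatocytes. Pachytene/diplotene spermatocytes listed none of these 3 genes.

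Smurf1, the ligase first known for degrading BMP Smads, had peaks spread over its coding region and 3′ UTR. In the order of the stages its strongest had 4.08 and 3.71, then 1.57 and 1.29, 3.01 and 2.59, 3.50 and 2.80, and 2.01 and 1.51. The strongest Smurf2 peak had 2.54 and 2.07 for type A1 and 1.65 and 1.87 for round spermatids, the stages that did not list its leading peak. With 20 and 21 peaks Smurf1 and Smurf2 had the most of all members, and Bmp2k followed with 18.

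The symbol rule also took in genes that only border on the pathway. Bmp2k, an inducible kinase named for BMP2 rather than a signalling component, had the highest peak of all members, at 5.67 and 7.43 in the coding region in undifferentiated spermatogonia. It reached 6.10 and 5.92 in preleptotene spermatocytes and 5.39 and 4.52 in pachytene/diplotene spermatocytes. Bmp1, a metalloprotease that cleaves procollagen, was listed in 2 stages, and Tgfbrap1, a receptor-associated protein, in 4 at up to 3.22 and 2.64 (preleptotene).

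By level, member peaks were middling in undifferentiated spermatogonia and high in the next stages. Their median mean enrichment was 2.90, 2.27, 3.62, 3.16 and 1.76 across the 5 stages in order, and their median percentiles among all peaks were 45.0, 75.5, 74.9, 62.5 and 55.7. Listed members had 3.04, 2.28, 3.53, 2.62 and 2.12 peaks each on average, against 2.53, 2.24, 2.51, 2.33 and 1.95 for all listed genes.

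Member peaks lay less often in coding regions than peaks at large. In undifferentiated spermatogonia 38.0% of 79 member peaks were coding against 59.9% of all peaks, 26.6% lay in 3′ UTRs against 13%, and 17.7% in 5′ UTRs against 5.22%. In type A1 spermatogonia 26.8% of 41 were coding against 50.5%, and 26.8% carried the stop codon label against 14.8%. Of the 44 labelled member peaks of preleptotene spermatocytes 50% were coding against 74.6%, and 36.4% lay in 3′ UTRs against 18.7%. Pachytene/diplotene spermatocytes had 33.3% of 21 in 3′ UTRs against 9.77%. In round spermatids 29.4% of 17 had the stop codon label against 11%, while 5.88% lay in 3′ UTRs against 9.28%. Peaks of 1 transcript are not independent, and no test was made.

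**Figure D4:**
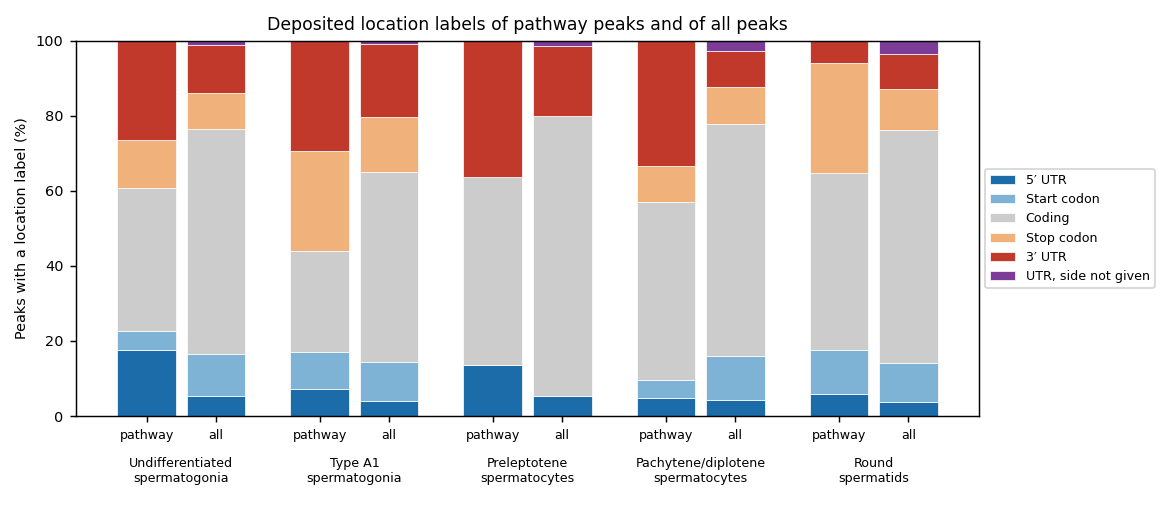
Stacked bars give the percent of labelled peaks by deposited location at each stage, for pathway peaks (left bar) and all peaks of the table (right bar). The coding share of pathway peaks lies below that of all peaks at every stage. Blank labels, which take the place of start and stop codon labels in the preleptotene list, are left out.

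Peaks that shared at least 1 base across tables were merged into 91 sites on member transcripts. At all 5 stages 3 sites were listed, 1 on Acvr2a (bases 2106 to 2372) and 2 on Smurf2 (bases 889 to 1240 and 2551 to 2830), which is 3.3% against 12% of all 31395 sites. A further 40 (44.0%, against 38.8%) were listed at 1 stage.

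Within each table, the same peaks also had values for a comparison stage, which allowed tests. The deposited ratio does not name that stage, and it was identified from the values. The 2 replicates of a stage were set against the 2 of the other, after centring every library on its median over the table, with limma and p-values adjusted over all peaks of the table. A difference is thus relative to the table, and it is given with its standard error. Called means an adjusted p under 0.05. Each test took only peaks listed for the first stage named, a choice that favours higher values in that stage before centring. The direction of calls therefore describes those peaks and not the transcripts as a whole. Undifferentiated spermatogonia, type A1 and preleptotene libraries each enter 2 of the comparisons, and both late comparisons use the same libraries, so the results are not independent of each other.

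Preleptotene against undifferentiated spermatogonia, which uses no type A1 library, gave nearly all calls in the higher direction. Of 53 member peaks 12 were called higher (5.36% of all peaks tested) and 1 lower (2.45%). Bmpr2 had 6 and Tgfbr1 5 of the higher peaks, and Acvr2a the other, in its 5′ UTR (3.64 and 3.50 against 2.09 and 2.42). The Acvr2a call ended with quantile normalisation and also without centring (limma adjusted p = 0.0726). Column medians of this table were 2.92 and 2.95 against 2.68 and 3.20, and without centring 12 member peaks were higher and 0 lower (862 and 355 of all 18706 peaks). The median member difference was 0.44, against 0.01 over all peaks.

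The largest was the Bmpr2 coding peak at bases 2452 to 2612, with 4.63 and 5.33 in preleptotene spermatocytes and 1.46 and 3.35 in undifferentiated spermatogonia (difference 2.58 ± 0.45, adjusted p = 0.00625). The neighbouring peak at 2613 to 2782 had 5.04 and 6.04 against 2.27 and 4.38 (2.21 ± 0.50, adjusted p = 0.0208). At bases 1729 to 1952 the values were 4.50 and 4.11 against 1.90 and 2.62 (2.05 ± 0.34, adjusted p = 0.00479). These 3 peaks were picked for their large differences. The peak at 2884 to 3058 differed by 1.76 ± 0.33 (adjusted p = 0.00884), and peaks that abut may be 1 enriched stretch.

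For Tgfbr1, the 3′ UTR peak at 2250 to 2404 had 3.14 and 3.18 in preleptotene spermatocytes and 0.71 and 1.43 in undifferentiated spermatogonia (2.09 ± 0.33, adjusted p = 0.00378). The coding peak at 995 to 1354 had 2.46 and 3.41 against 0.68 and 1.75 (1.72 ± 0.39, adjusted p = 0.0214), a call that quantile normalisation ended (1.36, adjusted p = 0.0842). Both were picked in the same way. Bmpr1a went the other way at its 5′ peak, 182 to 470, with 2.22 and 2.08 against 3.04 and 3.67 (-1.20 ± 0.33, adjusted p = 0.045). Calls for Bmpr2 at 1729 and 2452 and for Tgfbr1 at 2250 held with any 1 library left out. Fewer peaks were called higher whichever library was left out, among members and over all peaks of the table.

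**Figure D5:**
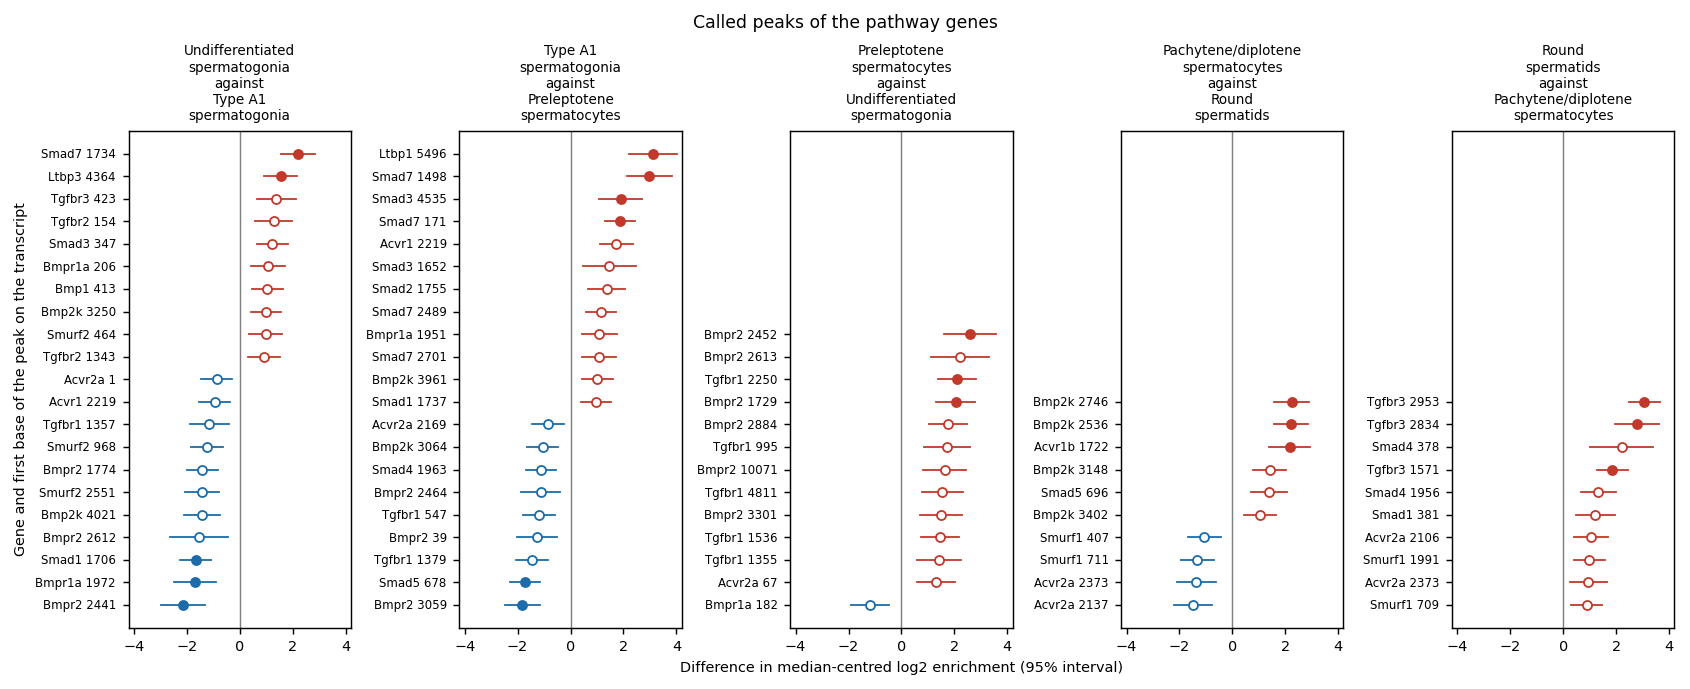
Points are the called differences of member peaks in median-centred log2 enrichment, with limma 95% intervals, in 5 comparisons, named by gene and first base, and red for higher and blue for lower in the first stage named. Filled points (20 of 75) stayed called with any 1 library left out. Without centring, 9, 2, 0, 4 and 4 of the differences from left to right changed sign.

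In type A1 against preleptotene, Smad7 had the most higher peaks and Bmpr2 the most lower ones. Of 41 member peaks 12 were called higher (14.4% of all tested) and 9 lower (13.6%). Column medians were 1.78 and 1.73 in type A1 against 2.79 and 2.84, so without centring 3 were higher and 24 lower (510 and 10777 of all 16309 peaks). Scaled to equal spread, 13 were higher and 6 lower (2349 and 1597 of all peaks).

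Smad7 was called higher at all 4 of its type A1 peaks. The start codon peak at 1498 to 1653 had 2.93 and 3.22, against preleptotene values of 1.68 and 0.64 (2.98 ± 0.37, adjusted p = 0.00215). The 5′ UTR peak at 171 to 319 had 1.93 and 1.87 against 1.0 and 1.22 (1.85 ± 0.25, adjusted p = 0.00248). Both remained higher without centring, by 1.92 and 0.79. These peaks were likewise picked for large differences. The other 2 differed by 1.15 and 1.07, and by 0.084 and 0.003 without centring.

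Ltbp1 had the largest difference, at a 3′ UTR peak with 2.65 and 2.22 in type A1 against -0.22 and 1.0 (3.11 ± 0.39, adjusted p = 0.00219). Smad3 was higher at a 3′ UTR peak, 4535 to 4760, with 1.57 and 1.63 against 0.22 and 1.30 (1.90 ± 0.35, adjusted p = 0.00789). Its peak at 1652 to 1847 differed by 1.46 ± 0.43 (adjusted p = 0.0386). Acvr1 had 2.69 and 2.28 against 1.62 and 2.03 at 2219 to 2584 (1.73 ± 0.27, adjusted p = 0.00446). Without centring the Ltbp1 call held (2.05). Those of Smad3 at 4535 (0.84, limma adjusted p = 0.0712) and 1652 (0.40, 0.425) and of Acvr1 (0.66, 0.0665) ended.

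Bmpr2 was lower at 3 of its 4 type A1 peaks. The stop codon peak at 3059 to 3493 had 1.95 and 2.01, against preleptotene values of 4.51 and 5.22 (-1.82 ± 0.29, adjusted p = 0.00471). The 5′ UTR peak at 39 to 240 differed by -1.28 ± 0.33 (adjusted p = 0.0238) and the coding peak at 2464 to 2780 by -1.13 ± 0.32 (adjusted p = 0.0335). The last call ended with quantile normalisation (-0.33, adjusted p = 0.461), equal-spread scaling (-0.21, adjusted p = 0.637) and a minimum enrichment of 2 (-1.02, adjusted p = 0.0556). Smad5 had 2.21 and 2.35 against 4.95 and 5.17 at its start codon (-1.72 ± 0.25, adjusted p = 0.00343). Tgfbr1 was lower at 1379 to 1691, with 2.35 and 2.26 against 4.58 and 5.06 (-1.46 ± 0.26, adjusted p = 0.00711), and at 547 to 747 (-1.20 ± 0.26, adjusted p = 0.0135). Without centring these 6 peaks were lower still. With equal-spread scaling Smad5 (-1.07) and Tgfbr1 at 1379 (-0.86) stayed called, as did Smad3 at 4535 with quantile normalisation (1.23). Fewer peaks were called without either type A1 replicate and more without either preleptotene replicate, among members and over all peaks. Calls for Smad7 at 171 and 1498, Ltbp1, Smad3 at 4535, Smad5 and Bmpr2 at 3059 held with any library left out.

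In undifferentiated spermatogonia against type A1, the split was nearly even, and 3 transcripts had calls in both directions relative to the table. The lower calls of Smurf2 and Bmp2k changed sign without centring, and their higher calls ended with quantile normalisation. Of 78 member peaks tested 10 were called higher (15.9% of all tested) and 11 lower (9.22%). The Ltbp3 5′ UTR peak was left out, since both type A1 values were exactly 0. Column medians were 2.80 and 3.27 against 1.32 and 1.37, so without centring 62 were higher and 0 lower (20638 and 9 of all 22843 peaks). With quantile normalisation 7 were higher and 12 lower (2554 and 2498 of all peaks).

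The Smad7 coding peak at 1734 to 1892 had 5.24 and 5.20 in undifferentiated spermatogonia against 1.42 and 1.23 in type A1 (2.21 ± 0.28, adjusted p = 0.00193). Its 5 other peaks were not called, with differences from -0.69 to 0.73. The Ltbp3 coding peak at 4364 to 4568 had 2.64 and 2.94 against -0.24 and -0.65 (1.54 ± 0.27, adjusted p = 0.0064). Tgfbr3 at its start codon differed by 1.39 ± 0.32 (adjusted p = 0.0161), Tgfbr2 in the 5′ UTR by 1.29 ± 0.31 (adjusted p = 0.0199) and Smad3 in the coding region by 1.24 ± 0.26 (adjusted p = 0.0114). Ltbp3 and Tgfbr2 were among the members listed at this stage alone, where somatic markers were listed too.

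Bmpr1a showed the split along a transcript. Its 5′ UTR peak at 206 to 384 had 3.28 and 4.02 against 0.63 and 1.17 (1.06 ± 0.28, adjusted p = 0.0264). The stop codon peak at 1972 to 2129 had 3.23 and 4.60 against 4.14 and 3.70, lower relative to the table (-1.69 ± 0.35, adjusted p = 0.0109) and nearly level without centring. Smurf2 was higher at the start codon (0.98) and lower at the stop codon (-1.42 ± 0.29, adjusted p = 0.0102; 0.27 without centring). Bmp2k was higher at a coding peak (0.99) and lower in the 3′ UTR (-1.42 ± 0.31, adjusted p = 0.013; 0.26 without centring). Quantile normalisation ended the higher calls of Smurf2 and Bmp2k. The difference between the ends was not itself tested.

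The most negative was the Bmpr2 peak at 2441 to 2540, with 1.81 and 3.40 against 3.06 and 3.06 (-2.14 ± 0.37, adjusted p = 0.00559). Its neighbour at 2612 to 2776 had 2.27 and 4.37 against 3.43 and 2.91 (-1.54 ± 0.48, adjusted p = 0.046; 0.0629 with equal-spread scaling), and the Smad1 stop codon peak 2.10 and 2.74 against 2.47 and 2.32 (-1.66 ± 0.25, adjusted p = 0.00387). Without centring, 9 of the 11 lower calls changed sign, among them Bmpr2 at 2612 (to 0.15) and Smad1 (to 0.025). Fewer peaks were called without either type A1 replicate and more without either undifferentiated replicate, among members and over all peaks. Held with any library left out were Smad7, Ltbp3, Smad1, Bmpr1a at the stop codon and Bmpr2 at 2441.

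The late stages were compared on the peaks of each, with the same libraries. On the peaks listed for pachytene/diplotene spermatocytes, 6 of 21 member peaks were called higher than in round spermatids (7.06% of all tested) and 4 lower (1.71%). Column medians were 3.13 and 2.64 against 1.26 and 1.29, and without centring 16 were higher and 0 lower (14533 and 6 of all 15514 peaks). Bmp2k made 4 of the 6, led by coding peaks at 2746 to 2887, with 4.94 and 4.88 against 0.90 and 1.20 (2.25 ± 0.30, adjusted p = 0.00383), and at 2536 to 2745 (2.21 ± 0.29, adjusted p = 0.0037). The other 2 Bmp2k peaks differed by 1.40 and 1.04, the latter not called with quantile normalisation (adjusted p = 0.0688). Acvr1b had 5.36 and 4.00 against 0.95 and 0.87 at 1722 to 1883 (2.16 ± 0.34, adjusted p = 0.00741). Smad5 had 4.57 and 3.97 against 1.54 and 1.01 (1.38 ± 0.30, adjusted p = 0.0233).

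Lower relative to this table, and not without centring, were 2 Acvr2a peaks (-1.49 and -1.37) and 2 Smurf1 coding peaks (-1.06 and -1.33). The Acvr2a stop codon peak had nearly equal deposited values, 4.01 and 3.62 against 4.03 and 3.36 (-1.49 ± 0.32, adjusted p = 0.021). All 4 changed sign without centring, to 0.12 and 0.24 for Acvr2a and 0.56 and 0.28 for Smurf1. Calls that held with any library left out were Acvr1b and the 2 leading Bmp2k peaks. How many peaks were called depended on which library was left out, among members and over all peaks.

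On the peaks listed for round spermatids, 10 of 17 member peaks were called higher than in pachytene/diplotene spermatocytes (16.1% of all tested) and 0 lower (10.9%). At an unadjusted limma p under 0.05 these were 11 and 1 (4160 of all 10810 peaks in either direction). Column medians were 1.71 and 1.62 against 3.08 and 2.6, and without centring 3 were higher and 4 lower (540 and 7457 of all peaks). Tgfbr3 was called at all 3 of its peaks. The stop codon peak at 2953 to 3146 had 3.04 and 3.12 in round spermatids against 1.28 and 1.12 (3.06 ± 0.26, adjusted p = 0.000417), and the adjacent one at 2834 to 2952 had 1.80 and 2.30 against 0.19 and 0.68 (2.79 ± 0.37, adjusted p = 0.00108). The coding peak at 1571 to 1720 had 1.43 and 1.43 against 1.14 and 0.36 (1.86 ± 0.26, adjusted p = 0.00127). All 3 calls held with any library left out. Without centring the differences were 1.89, 1.62 and 0.68, and the last was no longer called (adjusted p = 0.121). With quantile normalisation it was 1.11 and called.

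Smad4 was called at both its peaks. Its start codon had 2.79 and 1.52 in round spermatids against 0.63 and 1.62 (2.20 ± 0.52, adjusted p = 0.0142), so the groups overlapped before centring, and its stop codon 1.55 and 1.33 against 1.24 and 1.32 (1.33 ± 0.28, adjusted p = 0.00929). The start codon call held without centring (adjusted p = 0.019), and the stop codon call ended there (0.15, adjusted p = 0.738) and with quantile normalisation (0.79, adjusted p = 0.0859). Smad1 differed by 1.21 ± 0.32 at the start codon (adjusted p = 0.0242) and by 0.03 without centring. The other 4 calls were 2 peaks each of Acvr2a (1.05 and 0.95) and Smurf1 (0.98 and 0.89), and all 4 changed sign without centring. Such Acvr2a peaks were also called on the other table, whose libraries are the same. Fewer peaks were called without either round spermatid replicate, among members and over all peaks. Without pachytene/diplotene replicate 1 fewer member peaks were called, but more of all peaks.

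Set side by side, Bmpr2 stood lower in undifferentiated than in type A1 spermatogonia at 3 peaks, lower in type A1 than in preleptotene at 3 (1 of which depended on the scaling), and higher in preleptotene than in undifferentiated at 6. Tgfbr1 had 1, 2 and 5 called peaks in those same directions. Quantile normalisation ended the preleptotene calls of Tgfbr1 at 995, 1355 and 4811 and of Bmpr2 at 10071. Equal-spread scaling ended that of Tgfbr1 at 4811 too, and the call of Bmpr2 at 2612 in undifferentiated against type A1. Smad7 was higher at 1 peak in undifferentiated than in type A1 and higher at 4 in type A1 than in preleptotene. Of those 4, the peaks at 2489 and 2701 differed by 0.084 and 0.003 without centring. Of all these calls, only those of Bmpr2 at 2441, 3059, 1729 and 2452, Tgfbr1 at 2250 and Smad7 at 1734, 171 and 1498 held with any library left out. The values are relative to each table. Without centring none of the Bmpr2 and Tgfbr1 peaks was called in the first of these, and 3 of the 4 differences changed sign.

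Other genes of the pathway are given as counts of fixed lists, which include genes listed at no stage, and were not tested. Of 13 Smad cofactors 12, 10, 10, 7 and 6 were listed across the 5 stages in order, and of 18 ubiquitin, phosphatase and kinase regulators 18, 16, 15, 10 and 11. Antagonists and modulators were listed at 6, 2, 2, 1 and 2 of 15, other ligands and receptors at 5, 2, 0, 0 and 0 of 12, and target genes at 5, 2, 0, 2 and 0 of 11. At any stage 13 of 13 cofactors, 18 of 18 regulators, 7 of 15 antagonists and modulators, 5 of 12 other ligands and receptors and 5 of 11 targets were listed.

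Each of the 4 leading cofactors had its highest peak in undifferentiated spermatogonia. Lemd3, an inner nuclear membrane protein that binds receptor Smads, had 7.04 and 7.38, and Skil, a co-repressor of Smads, 6.25 and 6.57. Ep300, a Smad coactivator, had 5.72 and 6.37 and Zeb2, a Smad-interacting repressor, 5.09 and 6.00. Among the regulators, Fkbp1a, which binds type I receptors, had 6.43 and 5.45, Strap 5.67 and 5.94, Usp11 5.36 and 5.94 and Xiap 5.21 and 5.66 in the same cells. Among antagonists Twsg1, a BMP binding protein, led with 4.40 and 4.69 in preleptotene spermatocytes, and Fstl1 (2.98 and 4.53) and Nbl1 (3.41 and 3.61) had their highest peaks in undifferentiated spermatogonia.

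Other ligands and receptors were led by Eng (4.65 and 4.84), the co-receptor endoglin, Amh (3.24 and 4.24), a hormone of Sertoli cells, and the BMP co-receptors Rgma (3.24 and 3.72) and Rgmb (3.0 and 3.03), all in undifferentiated spermatogonia. Of the targets, Id2 had 3.46 and 4.30 and Atoh8 3.40 and 3.09 there. Id4, a BMP target known as a marker of spermatogonial stem cells, was highest in pachytene/diplotene spermatocytes, at 3.91 and 3.71.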

How the data were processed

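TopHat2 2.0.14 and the build mm10 are named per the submitters' processing notes. Peak caller, thresholds, annotation and scaling: not given in the sources used here. Deposited by the authors were a table of read totals and, per the file headers, 1 peak list per stage with log2 enrichment and log2 ratio to an unnamed stage for each replicate. That stage was identified by enrichment minus ratio, which over overlapping peaks correlated with the enrichment of 1 stage at r of 0.942 to 0.971 and with the others at 0.392 to 0.703. The listed members do not change with updated symbols. Peaks with an exact 0 were left out, columns were median-centred, and 2 against 2 replicates were fitted with limma 3.58.1 (R 4.3.3, lmFit, eBayes, two-sided, Benjamini-Hochberg over all peaks of a table). On simulated data, over the 5 comparisons in the order of the report's figure of calls, it recovered 24%, 34%, 16%, 42% and 56% of log2 differences of 1, and 96% to 100% of those of 2. The same simulations also gave 7, 11, 14, 23 and 23 false calls in that order, with the most in both late comparisons. Whether the false share of calls stayed under the threshold used was not worked out, so the calls may hold more false ones than it allows. Counts behind single peaks were not used, so precision rests on 2 replicates. The members, lists and rule for named genes (3 markers, members at all or 1 stage, the leading member per role, called peaks up to 6 each way, the 4 leading other genes per class) were chosen with earlier results of these data known. Some genes that this rule names are not reported here.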

Additional observations from a re-analysis of the deposited data

How the results depend on the processing

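Of 75 called member peaks, 58 stayed called under the replicate block, quantile scaling, equal-spread scaling, an intensity trend and, where tested, a minimum enrichment of 2, and 20 of them did so also with any 1 library left out, where the lone replicate is assumed to vary like the others. Without centring 19 changed sign, and 2 changed sign under another scaling, Acvr2a at 2169 (type A1) and Smurf1 at 1991 (round spermatid, also among the 19). Higher and lower counts, by the stage whose peaks were tested (undifferentiated, type A1, preleptotene, pachytene/diplotene, round spermatid), were 62 and 0, 3 and 24, 12 and 0, 16 and 0, and 3 and 4 without centring. Whether the replicate numbers pair the samples is not stated. Same-numbered deviations correlated at -0.143 to 0.122, which cannot settle whether such libraries share a preparation. With a replicate block 18 preleptotene member peaks were higher and 2 lower (1662 and 847 of all 18706 peaks). With it 1 round spermatid member peak was lower (1333 of all 10810). Crossed numbers, tried after seeing the data, gave 17 higher and 19 lower in the first comparison (4869 and 3044 of all 22843). Quantile scaling left 7 higher in preleptotene (534 of all 18706 peaks). The minimum of 2 left 2 lower in pachytene/diplotene (267 of all 14946) and 6 higher in round spermatids (679 of all 9002). Leaving out 1 library gave ranges of 4 to 20 higher and 4 to 19 lower, 4 to 16 and 2 to 13, 4 to 10 and 0 to 1, 3 to 5 and 0 to 2, and 3 to 10 and 0 to 1. Named peaks reversed only without centring, to 0.15 (Bmpr2 2612), 0.025 (Smad1 1706), 0.27 (Smurf2 2551) and 0.26 (Bmp2k 4021) in the first comparison, and to 0.56 and 0.28 (Smurf1 407 and 711) and 0.12 and 0.24 (Acvr2a 2137 and 2373) in the fourth. Centring shifts a whole table by construction, and the cause of the other changes was not tested. At a common minimum of 1.55, members listed were 26, 16, 15, 8 and 8. In percent these were 96.3, 59.3, 55.6, 29.6 and 29.6, against 78.7, 49.2, 64.7, 58.1 and 33.0 of all genes. With the best 10950 peaks in every table members numbered 20, 16, 15, 8 and 8, with the shares of all genes given above. With blank labels placed, 44% of preleptotene member peaks were coding, against 64.2% of all. Averaging over all peaks of a gene moved 23 of 33 strongest values by more than their SD.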
